A study of Mus musculus with 9 samples.

Results

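The Hox genes encode homeodomain transcription factors that record position along the body axis. In the mouse they lie in the clusters Hoxa, Hoxb, Hoxc and Hoxd, and genes with the same number in different clusters are paralogs, copies of a common ancestral gene. Within a cluster the low numbers are switched on early and towards the head, the high numbers late and towards the tail, and mesenchymal cells of adult organs keep much of the pattern of the place they were laid down in. Their transcripts are therefore read as a record of where a stromal cell came from, a question raised by hepatic stellate cells (HSCs), the vitamin A-storing pericytes of the liver sinusoid that become scar-forming activated HSCs (aHSCs) after injury.

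The members were probes on the bead array whose symbol was Hox followed by a, b, c or d and a number. The 55 probes for 38 genes described here, of 30869 gene symbols on the array, comprised 10 genes in Hoxa on chromosome 6, 10 in Hoxb on chromosome 11, 9 in Hoxc on chromosome 15 and 9 in Hoxd on chromosome 2. Paralogs 1 to 3 are called anterior here (7 genes), 4 to 8 central (15 genes) and 9 to 13 posterior (16 genes). A gene with several probes (12 genes) was described by its brightest.

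RNA came from C57Bl/6 WT1GFP/+ mice (adult males for the injured livers, males and females for cell culture, per the study), in which green fluorescent protein (GFP) is knocked in at the locus of the mesothelial transcription factor WT1, so that all 3 groups carry the reporter allele. WT1-high and WT1-intermediate aHSCs (3 arrays each, replicates 1, 8 and 29, and 1, 8 and 30) were GFP-high and GFP-low cells sorted from livers injured chronically with carbon tetrachloride (CCl4), and per the study these 6 arrays stand for 3 animals. WT1-negative aHSCs (3 arrays, replicates 3, 11 and 14) were quiescent HSCs of uninjured livers that had been activated for 7 days on plastic and then sorted as GFP-negative. WT1 status and origin, injured liver or culture dish, thus coincided, and their effects cannot be told apart in any comparison with WT1-negative cells. The study counts independent cell isolations as replicates in culture, although the labels do not tie each cultured array to one. Wt1 itself was not analysed here.

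Most of the Hox genes detected in every sample belonged to the clusters Hoxa and Hoxb. A probe was termed detected where its detection p, the share of negative control probes brighter than it, was under 0.05. Of 38 genes, 9 were detected on all 9 arrays, namely Hoxa2, Hoxa4, Hoxa5, Hoxa7, Hoxb2, Hoxb4, Hoxb5, Hoxb7 and Hoxc6. By cluster, 4 were Hoxa, 4 Hoxb, 1 Hoxc and 0 Hoxd genes. By class, 2 of 7 anterior genes, 7 of 15 central genes and 0 of 16 posterior genes were among them. The 9 genes were also detected on all 9 arrays at a detection p under 0.01. A further 10 genes were detected on no array, and 19 on some. Over all gene symbols, 31.0% were detected on every array and 38.3% on none, beside 23.7% and 26.3% of the Hox genes. A gene whose probe was not above background may still be transcribed.

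The number of Hox genes detected did not separate the groups. WT1-high arrays detected 14, 15 and 16 genes, WT1-intermediate arrays 12, 17 and 11, and WT1-negative arrays 14, 21 and 16. The groups overlapped, with means of 15 ± 1.00, 13.3 ± 3.21 and 17 ± 3.61 (SD, n = 3 arrays). Posterior genes were detected 4, 4 and 4 times on WT1-high arrays, 2, 3 and 0 times on WT1-intermediate arrays and 4, 8 and 4 times on WT1-negative arrays. The 8 were on WT1-negative replicate 11, which is described further below.

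**Figure D1:**
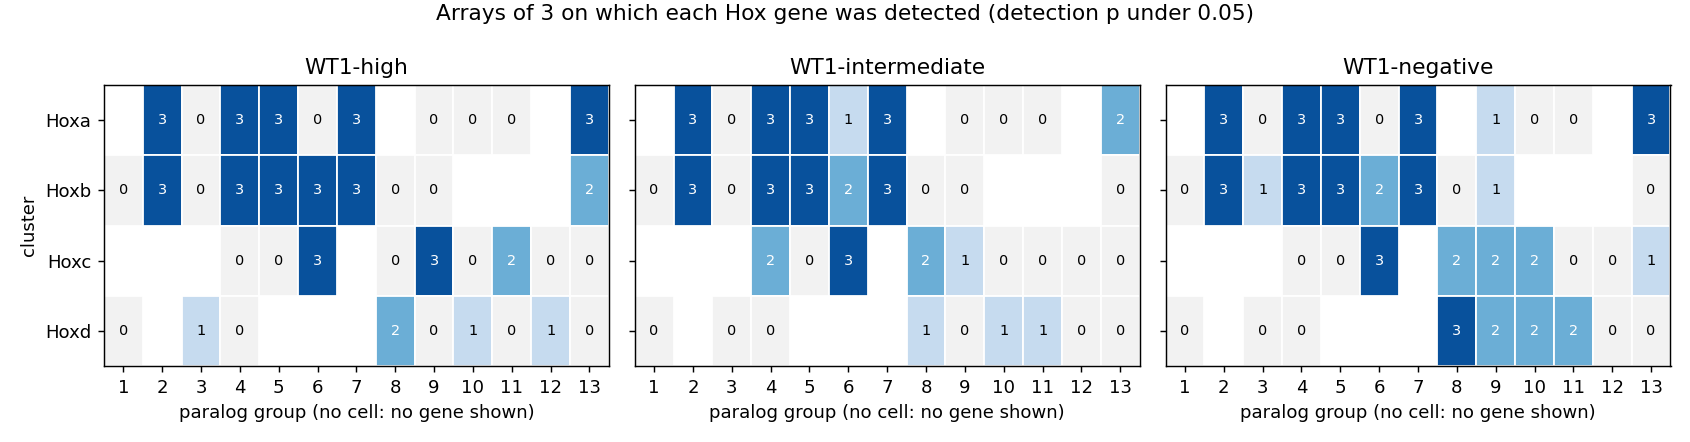
Number of arrays (of 3) on which each Hox gene was detected, by cluster (rows) and paralog group (columns), with 1 panel per group and no cell where no gene is shown. The cells with 3 in all panels are paralogs 2, 4, 5 and 7 of Hoxa and Hoxb and paralog 6 of Hoxc, and no posterior gene has 3 in every panel.

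The genes named from here on were chosen after their values were seen. Hoxa5 and Hoxb5 were taken by a rule on those values, a call with at least a 2-fold difference. Of the 55 Hox probes, 18 (16 genes) passed the detection filter and were tested, namely Hoxa2, Hoxa4, Hoxa5, Hoxa7, Hoxa13, Hoxb2, Hoxb4, Hoxb5, Hoxb6, Hoxb7, Hoxc6, Hoxc8, Hoxc9, Hoxd8, Hoxd10 and Hoxd11. The other 22 genes were not tested. A call is an adjusted p under 0.05 from limma's moderated test with Benjamini-Hochberg adjustment over all 20573 tested probes, and all levels and differences below are on the log2 scale of normalised signal. Levels of different probes were not compared with each other.

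The regulatory sequence next to the start of a gene is shown for 3 members to which the results return: Hoxa5, the one Hox gene called higher in both in vivo groups, Hoxb4, called in WT1-intermediate cells, and Hoxa2, whose window alone among Hox promoters held matches for both PBX-HOX and MEIS. The windows are the 250 bases before the RefSeq start (GRCm38.p6), read 5′ to 3′ on the strand of the gene. Capitals mark matches on either strand to TGATTNAT (bound by PBX with HOX), TGACAG (bound by MEIS) and CCAAT (bound by NF-Y), none of which overlapped another. Hoxa5 lies at chr6:52204588-52204837 (minus strand), Hoxa2 at chr6:52164832-52165081 (minus strand) and Hoxb4 at chr11:96318017-96318266 (plus strand, no match).
Hoxa5: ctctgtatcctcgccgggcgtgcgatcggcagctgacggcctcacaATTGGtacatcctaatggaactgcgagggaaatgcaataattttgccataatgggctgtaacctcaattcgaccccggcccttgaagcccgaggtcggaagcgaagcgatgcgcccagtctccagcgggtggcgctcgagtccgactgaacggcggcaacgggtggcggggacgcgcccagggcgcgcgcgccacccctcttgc
Hoxa2: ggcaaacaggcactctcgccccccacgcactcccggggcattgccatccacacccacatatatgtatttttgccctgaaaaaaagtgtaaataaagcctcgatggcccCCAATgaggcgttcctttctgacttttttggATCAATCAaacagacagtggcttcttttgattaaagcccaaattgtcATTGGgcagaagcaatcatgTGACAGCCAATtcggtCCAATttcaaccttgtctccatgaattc
Hoxb4: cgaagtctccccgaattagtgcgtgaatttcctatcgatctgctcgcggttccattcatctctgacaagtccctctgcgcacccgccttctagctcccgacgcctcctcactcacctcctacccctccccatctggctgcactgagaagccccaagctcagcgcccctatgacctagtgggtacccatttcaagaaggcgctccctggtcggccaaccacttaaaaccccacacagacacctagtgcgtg

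Of the 38 Hox genes, 22 had such a window. TGATTNAT was found in 2 of them (Hoxa2 and Hoxd11), TGACAG in 2 (Hoxa2 and Hoxa3) and CCAAT in 14. Over all 32851 windows of the same length, 2.8% held TGATTNAT, 15.9% TGACAG and 33.8% CCAAT. These are matches of letters in a short window, not measured binding sites.

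The first comparison asked whether WT1-high and WT1-intermediate cells of the same livers differ in positional genes. Of the 18 Hox probes, 0 were called, beside 3.55% of all tested probes. At an unadjusted p under 0.05 there were 2 (Hoxa5 and Hoxb5), which is 11.1% of Hox probes beside 17.2% of all. The median difference (WT1-high minus WT1-intermediate) of the 16 genes was 0.15, beside 0.05 over all tested probes, and their range was -0.59 to 0.71. The sorted fractions did not overlap for 2 Hox probes (11.1%, all 20.1%). All 3 pairs of arrays differed in one direction for 5 of the 16 genes (Hoxa5, Hoxb4, Hoxb5, Hoxc6 and Hoxd8), as they did for 43.8% of all tested probes. The study names 3 animals, but the labels do not say which in vivo arrays share one. Pairs were taken from the replicate numbers (29 with 30), and a fit with these pairs changed the outcome. With the replicate as a fixed block 2 Hox probes were called, Hoxa5 (adjusted p 0.049) and Hoxb5 (0.043), beside 7.39% of all probes. With a random block 1 was called, Hoxa5 (adjusted p 0.022), beside 8.73% (limma, Benjamini-Hochberg).

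Hoxa5, a central gene known for its part in lung and gut mesenchyme, was highest in WT1-high cells. Hoxa5 was read from a single probe, whose array annotation gave no chromosome. Its levels were 10.04, 10.32 and 9.80 in WT1-high cells, 8.98, 9.52 and 9.55 in WT1-intermediate cells, and 8.79, 8.65 and 8.82 in WT1-negative cells. The groups did not overlap at any step. WT1-high cells stood 0.71 (SE 0.19) above WT1-intermediate cells with an adjusted p of 0.072, which is no call, and the differences within the pairs 1, 8 and 29/30 were 1.06, 0.80 and 0.25. Against WT1-negative cells Hoxa5 rose by 1.30 (SE 0.19, 2.46-fold, adjusted p 1.4e-04) in WT1-high cells. In WT1-intermediate cells it was called 0.59 higher (SE 0.19, adjusted p 0.02), but under median scaling this difference turned to -0.15 (adjusted p 0.69). Median scaling moved all tested probes of that comparison by a median of -0.44, so that Hoxa5 lay 0.29 above the shift. The call was also lost without WT1-intermediate replicate 8 or 30 or WT1-negative replicate 11, with differences of 0.51, 0.49 and 0.54 and adjusted p of 0.069, 0.073 and 0.062.

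Hoxb5, the paralog of Hoxa5 in the Hoxb cluster, ran the other way. It measured 5.21, 5.36 and 5.59 in WT1-high cells, 5.72, 5.95 and 6.25 in WT1-intermediate cells, and 6.60, 7.23 and 6.43 in WT1-negative cells, again with no overlap between groups. The difference of WT1-high from WT1-intermediate cells was -0.59 (SE 0.22, adjusted p 0.19), and -0.52, -0.59 and -0.67 within the pairs. Compared with WT1-negative cells Hoxb5 fell by 1.37 (SE 0.22, adjusted p 2.9e-04) in WT1-high and by 0.78 (SE 0.22, adjusted p 0.011) in WT1-intermediate cells. Both differences remained below 0 under every scaling tried. The third paralog, Hoxc5, was detected on no array. Hoxa5 and Hoxb5 were the 2 of 16 tested genes whose 3 groups were in a single order without overlap, as were 7.34% of all tested probes.

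**Figure D2:**
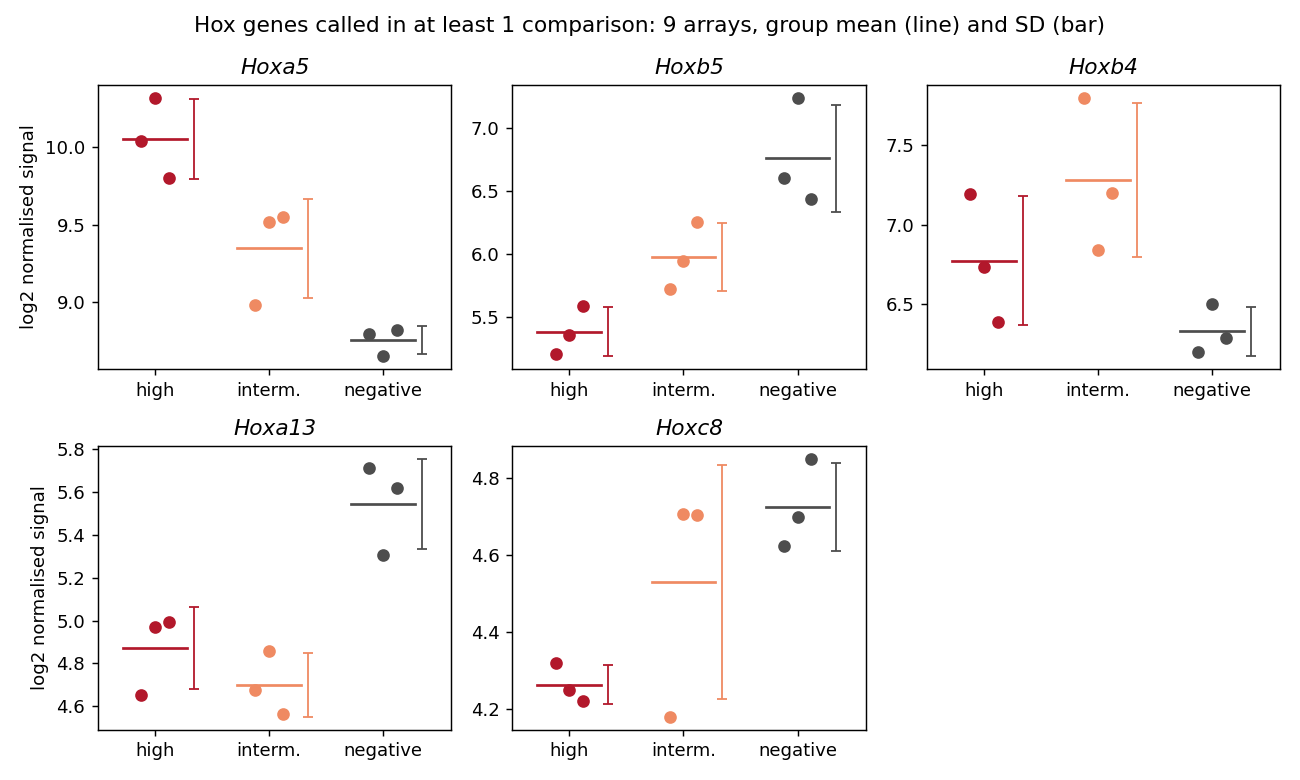
Levels (log2 normalised signal, y axis, each panel on its own scale) of the 5 Hox genes called in at least 1 comparison, by group (from WT1-high at the left to WT1-negative at the right), with the group mean as a line and the SD as a bar. Hoxa5 steps down and Hoxb5 steps up from left to right without overlap. Hoxb4 has its highest mean in the WT1-intermediate arrays, which overlap the WT1-high arrays.

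Comparisons with WT1-negative cells called fewer Hox probes than the array as a whole. With WT1-high cells 4 of 18 Hox probes (22.2%) passed, beside 59.6% of all tested probes. These were 1 with more signal in WT1-high cells (26.5% of all probes) and 3 with less (33.1% of all). The median difference of the 16 genes was -0.08 (all tested probes -0.10), and their median absolute difference was 0.38 (all 0.60). With WT1-intermediate cells 4 (22.2%) passed, beside 58.0% of all, 2 with more signal in them (24.4% of all) and 2 with less (33.6% of all). There the median was -0.19 (all -0.13), and the median absolute difference 0.42 (all 0.58). As the same 3 cultured arrays served both times, the results are not independent. Without overlap between groups were 6 Hox probes (33.3%, all 68.4%) and 5 Hox probes (27.8%, all 65.5%).

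Hoxb4, a central gene known for its role in blood stem cells, was called under the main settings only in the comparison of WT1-intermediate with WT1-negative cells. Levels were 7.80, 6.84 and 7.20 in WT1-intermediate cells, 6.20, 6.50 and 6.29 in WT1-negative cells, and 7.20, 6.73 and 6.39 in WT1-high cells. WT1-intermediate cells were thus clear of WT1-negative cells, while WT1-high cells overlapped both. The difference was 0.95 (SE 0.26, adjusted p 0.0081) for WT1-intermediate and 0.44 (SE 0.26, adjusted p 0.16) for WT1-high cells against WT1-negative cells. With array weights the difference of WT1-high cells was 0.58 and was called (limma adjusted p 0.024). WT1-high minus WT1-intermediate was -0.51 (SE 0.26, adjusted p 0.35), so a difference between the in vivo groups was not shown. Under median scaling the difference of WT1-intermediate from WT1-negative cells was 0.35 (adjusted p 0.38) and no call. WT1-high minus WT1-intermediate then changed sign to 0.13 (adjusted p 0.8).

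Hoxa13, the posterior end of the Hoxa cluster and a gene of limb, hindgut and urogenital tract, was lower in both in vivo groups. It gave 4.65, 4.97 and 5.00 in WT1-high cells, 4.68, 4.86 and 4.56 in WT1-intermediate cells, and 5.71, 5.31 and 5.62 in WT1-negative cells, the last group lying above both others on every array. It fell by 0.67 (SE 0.17, adjusted p 0.0049) in WT1-high and by 0.84 (SE 0.17, adjusted p 0.0012) in WT1-intermediate cells. This rests on 1 of 3 probes: the second was detected on 1 WT1-high array and the third on none. On the in vivo arrays the signal of the called probe was close to background.

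Hoxc8, a central gene of the thoracic trunk, was detected on no WT1-high array, on 2 WT1-intermediate arrays and on 2 WT1-negative arrays. It was at least 1.13-fold lower in WT1-high than in WT1-negative cells (adjusted p 0.034), from levels of 4.32, 4.25 and 4.22 against 4.63, 4.70 and 4.85. This call was lost under 9 of 19 alternative settings.

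**Figure D3:**
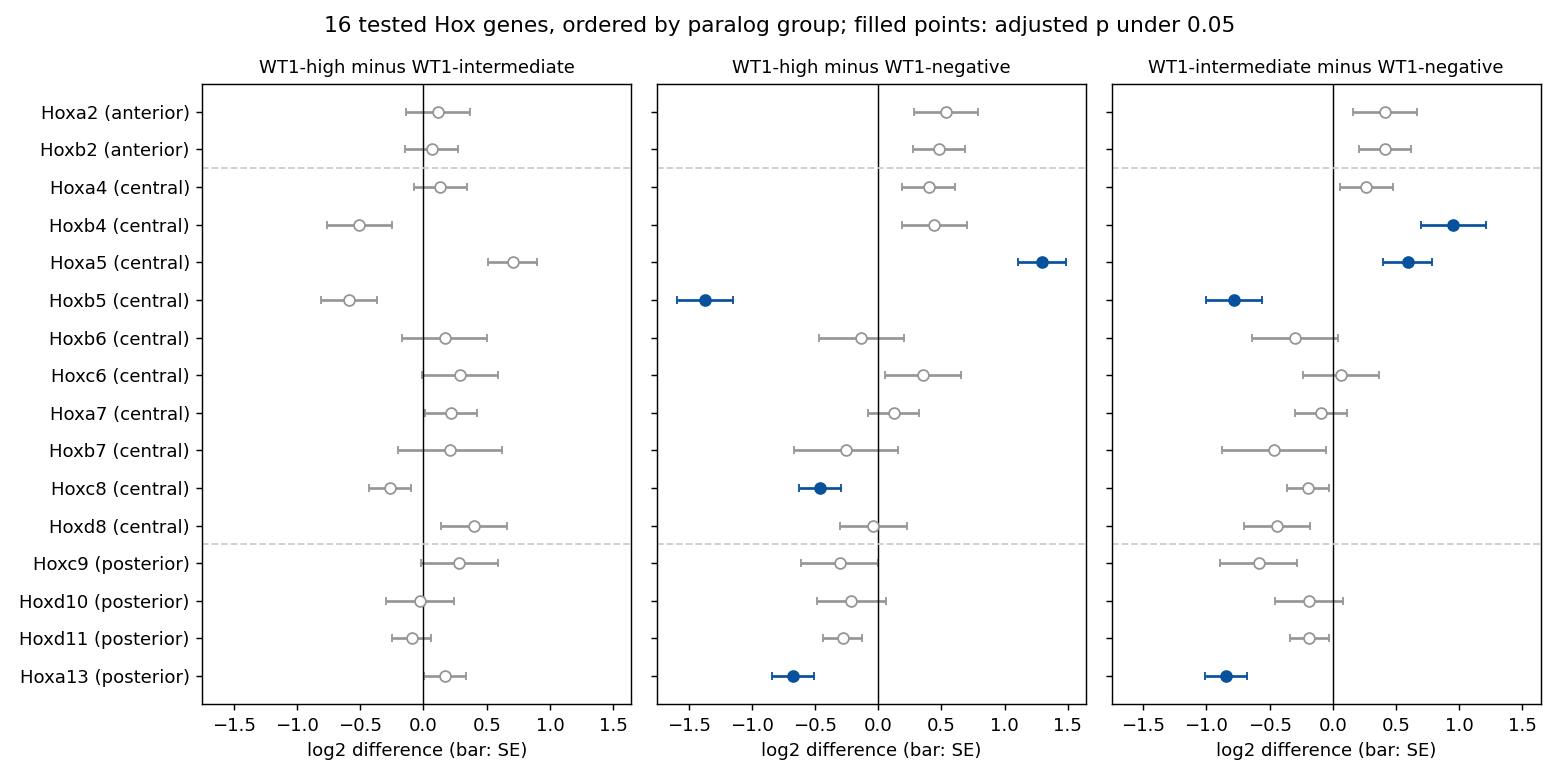
Log2 difference (x axis, bar SE) of the 16 tested Hox genes in the 3 comparisons, from paralog 2 at the top to paralog 13 at the bottom, with filled points for an adjusted p under 0.05 and dashed lines between the anterior, central and posterior classes. In both comparisons with WT1-negative cells the 2 anterior genes lie to the right of 0 and the 4 posterior genes to the left.

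Among the 16 tested genes, ordered by paralog number, differences from WT1-negative cells ran from above 0 (anterior) to below 0 (posterior). Few single genes were called, and the order covers only genes that passed the detection filter. Some passed mainly through the cultured arrays: Hoxd11 was detected on 0 WT1-high, 1 WT1-intermediate and 2 WT1-negative arrays. In WT1-high cells the 2 anterior genes, Hoxa2 and Hoxb2, differed by 0.53 and 0.48. The 10 central genes lay between -1.37 and 1.30 (median 0.04), 5 above and 5 below 0. The 4 tested posterior genes (Hoxa13, Hoxc9, Hoxd10 and Hoxd11) lay between -0.67 and -0.21 (median -0.29). Untested posterior genes, all near background, lay on both sides. Hoxb13 averaged 4.69 and Hoxd12 4.52 in WT1-high cells, each against 4.23 in WT1-negative cells. Hoxc10 averaged 4.44 against 4.80, and Hoxc13 4.34 against 4.59. In WT1-intermediate cells Hoxa2 and Hoxb2 both differed by 0.42, the tested central genes by -0.78 to 0.95 (median -0.14) and the tested posterior genes by -0.84 to -0.18 (median -0.39). Without WT1-negative replicate 11 the central medians became 0.35 and 0.16. Over all tested probes 54.5% were below 0 in the first comparison and 56.1% in the second.

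For these tested genes the order held over most settings but not all. Every setting used only genes that had passed the detection filter, so no setting could test that choice of genes. Alternatives that altered only the filter, the spread, the groups fitted or the random block could not change a gene's difference. Those that could were background, scaling, offset, array weights and leaving out an array. The posterior median stayed below 0 in both comparisons under each of the alternatives run that left posterior genes to test. Both anterior genes were above 0 under each alternative for WT1-high cells, and under all but median scaling (median -0.05) for WT1-intermediate cells. All posterior genes were below 0 except without WT1-negative replicate 11 for WT1-high cells, and under cyclic loess and array weights for WT1-intermediate cells. Of the posterior genes only Hoxa13 was called, and none of them was detected on all 9 arrays. Hoxa2 carried a second probe, also detected on all 9 arrays. Its differences from WT1-negative cells were -0.19 and -0.35 where the brighter probe gave 0.53 and 0.42, none of them called under the main settings. Under cyclic loess the brighter probe was called in both comparisons (0.75 and 0.66, limma adjusted p 0.019 and 0.037). Between the in vivo groups the class medians were 0.09, 0.19 and 0.07.

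The remaining central genes showed no call under the main settings. Hoxa4 measured 6.75, 6.00 and 5.95 in WT1-high cells, 5.91, 6.27 and 6.12 in WT1-intermediate cells and 5.86, 5.84 and 5.80 in WT1-negative cells. Both in vivo groups lay just clear of the cultured one, with differences of 0.40 and 0.27 (SE 0.21, adjusted p 0.12 and 0.29). For WT1-high cells Hoxa4 was called under cyclic loess (0.58, limma adjusted p 0.025) and array weights (0.52, adjusted p 0.024). Hoxa7, Hoxc6 and Hoxd8 overlapped between all groups. Hoxb2, an anterior gene, was 0.48 and 0.42 above WT1-negative cells (adjusted p 0.064 and 0.1). Without WT1-negative replicate 11 these became 0.67 and 0.61 and were called (adjusted p 0.016 and 0.026).

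A single cultured array stood apart for several Hox genes. WT1-negative replicate 11 was the highest of the 9 arrays for 5 of the 16 tested Hox genes (31.2%), beside 19.6% of all tested probes. Hoxb7, a central gene, gave 8.58 on it, but 6.56 and 6.78 on WT1-negative replicates 3 and 14, 7.18, 7.10 and 6.88 in WT1-high cells and 6.61, 6.90 and 7.01 in WT1-intermediate cells. The second Hoxb7 probe did the same, with 7.68 against 5.85 and 6.16. Its neighbour Hoxb6 gave 5.93 against 4.42 and 4.72, and Hoxc9 5.67 against 4.34 and 5.11.

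Replicate 11 exceeded the mean of the other cultured arrays by more than 1 for 2 of the 16 tested Hox genes (12.5%), Hoxb7 (1.91) and Hoxb6 (1.36), and for 1.05% of all tested probes. Hoxb7 and Hoxb6 are neighbours in the Hoxb cluster. The next largest excesses were those of Hoxc9 (0.95), Hoxc6 (0.81) and Hoxb5 (0.72). Hoxa2 (-0.47) and Hoxa13 (-0.36) lay the other way. The summed signal of several marker lists was also highest on replicate 11 of the cultured arrays. For skeletal muscle it was 10579 beside 6909 and 8677 on replicates 3 and 14. For portal and adventitial fibroblasts it was 2949 beside 1839 and 2162. Macrophage sums were 48833 beside 43668 and 46277, and hepatocyte sums 4774 beside 3329 and 3531. The stellate cell sum was lowest there, at 10626 beside 11503 and 13413. Mesothelial, endothelial, and T and NK cell sums lay between. The part of these markers in the Hox values was not tested. Leaving out replicate 11 kept the number of called Hox probes at 4 in both comparisons with WT1-negative cells but not the genes. For WT1-high cells Hoxc8 was lost (adjusted p 0.068) and Hoxb2 gained (0.016), and for WT1-intermediate cells Hoxa5 was lost (0.062) and Hoxb2 gained (0.026; limma, Benjamini-Hochberg).

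**Figure D4:**
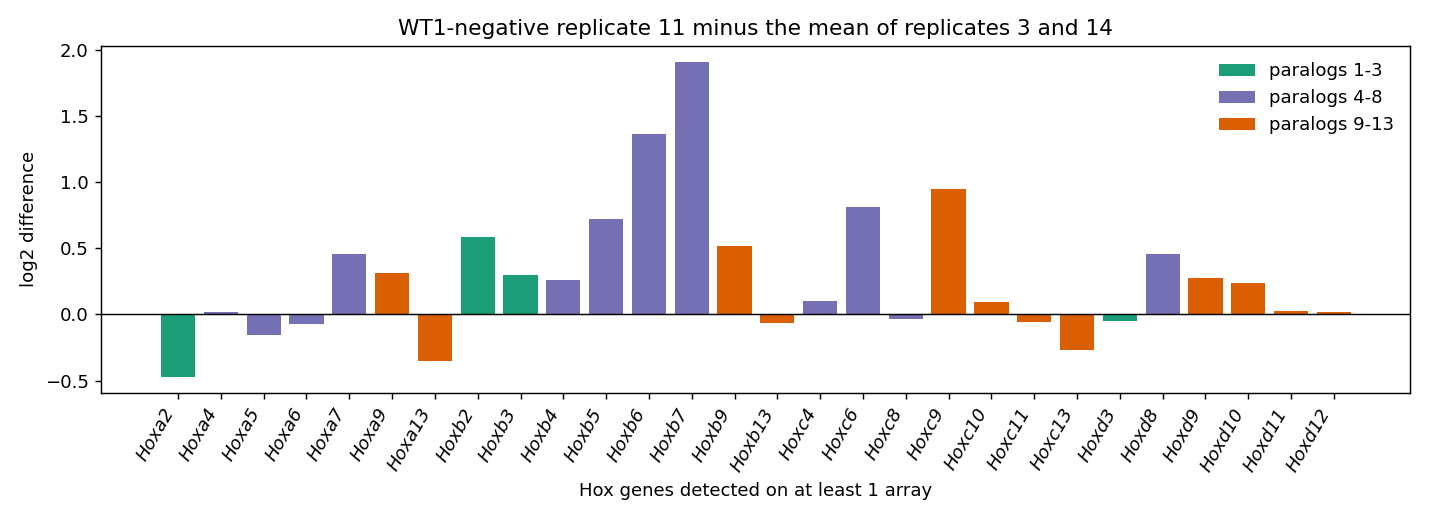
Log2 difference (y axis) of WT1-negative replicate 11 from the mean of WT1-negative replicates 3 and 14, for the 28 Hox genes detected on at least 1 array (x axis, by cluster and number), coloured by class. The tallest bars are Hoxb7 (1.91) and Hoxb6 (1.36), and the deepest is Hoxa2 (-0.47).

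Hox proteins bind DNA together with TALE homeodomain cofactors of the Pbx, Meis and Pknox families. All 8 TALE genes listed were tested, and 0 were called between the in vivo groups. Against WT1-negative cells 2 were higher, 2 lower and 4 not called in WT1-high cells, and 2, 2 and 4 in WT1-intermediate cells, where the lower genes were partly others, beside 59.6% and 58.0% of all tested probes called. The list medians were -0.01 and -0.14, beside -0.10 and -0.13 over all tested probes.

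Meis1 and Meis2 were the 2 higher genes in both comparisons. Meis1 measured 10.10, 10.16 and 9.60 in WT1-high, 9.18, 9.88 and 9.35 in WT1-intermediate and 7.39, 7.05 and 7.86 in WT1-negative cells, with differences of 2.52 (SE 0.25, adjusted p 6.8e-06) and 2.04 (adjusted p 4.2e-05). Meis2, at 10.06 to 10.39 in vivo and 7.58 to 7.89 in culture, rose by 2.55 (SE 0.14, adjusted p 8.6e-08) and 2.36 (adjusted p 2.0e-07). In both genes every in vivo array lay above every cultured array, and the gap was wider than that of any Hox gene tested. A dimmer Meis1 probe differed less, by 0.16 (adjusted p 0.35) and 0.63 (adjusted p 0.0031).

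Pbx3 went the opposite way, by -0.90 (adjusted p 4.0e-04) in WT1-high cells. The same probe was detected on no WT1-intermediate array and was at least 1.82-fold lower there than in WT1-negative cells (adjusted p 2.2e-04), and a dimmer Pbx3 probe, detected on 1 WT1-intermediate array, differed by -0.83 (adjusted p 0.0029). Pbx2 (-0.64, adjusted p 0.022) was the other lower gene in WT1-high cells and Meis3 (-0.51, adjusted p 0.048) in WT1-intermediate cells. The Pbx2 call was lost under 5 of 21 alternatives and the Meis3 call under 14 of 20. In WT1-intermediate cells the described Pbx2 probe was not called (-0.53, adjusted p 0.052), whereas a dimmer one was (-0.92, adjusted p 6.6e-04). Pknox1, Pknox2 and Pbx4 were called in neither comparison.

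**Figure D5:**
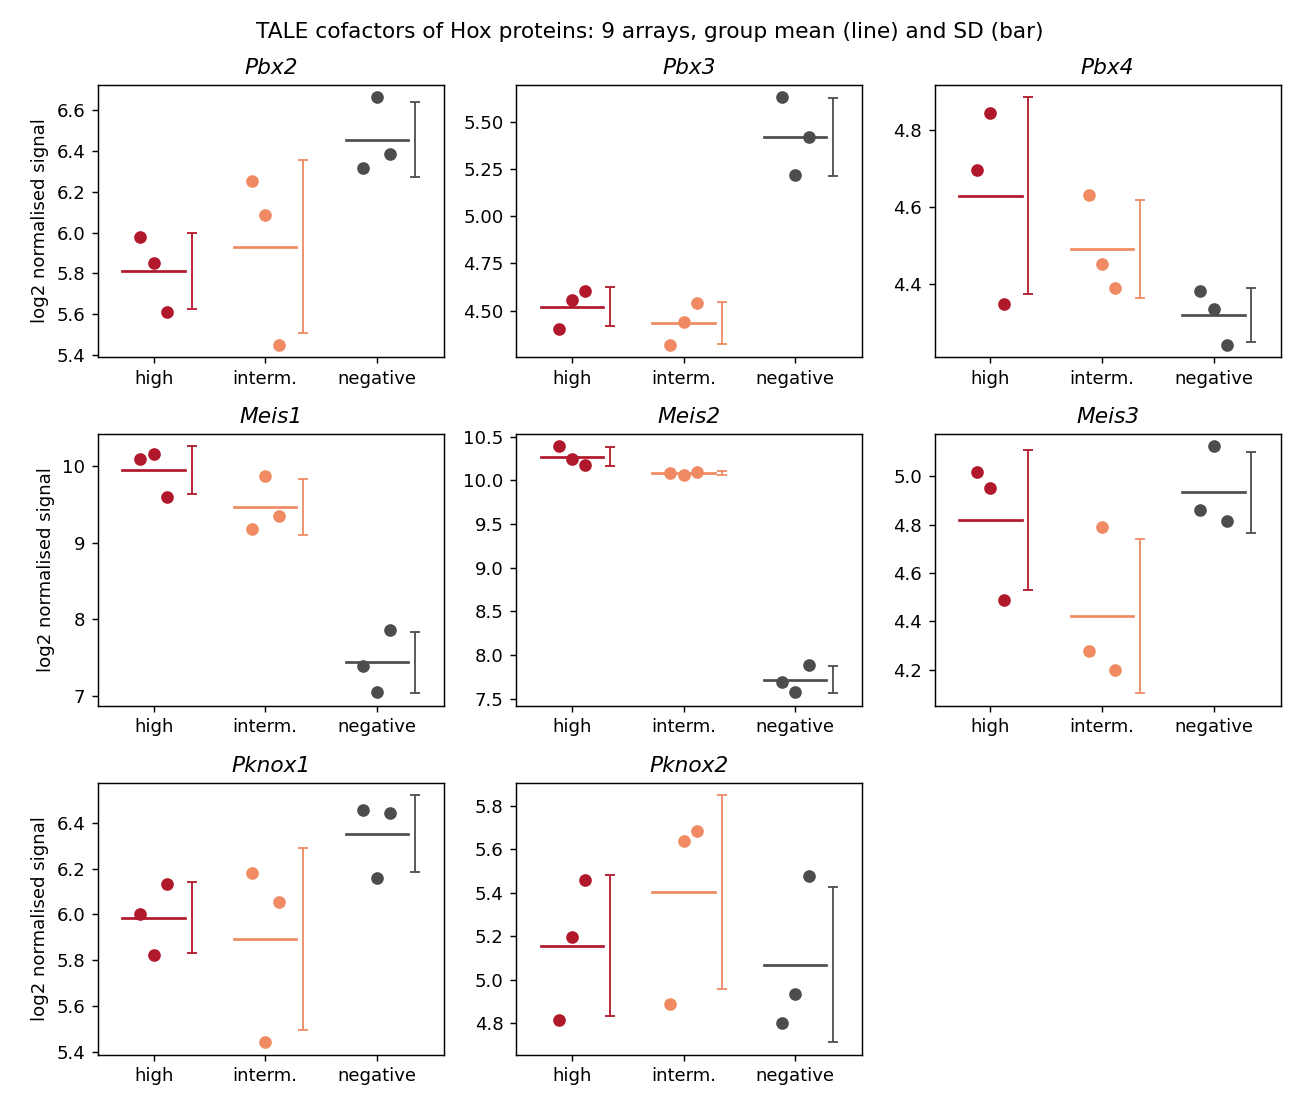
Levels (log2 normalised signal, y axis, each panel on its own scale) of the 8 TALE cofactor genes on the 9 arrays, by group, with the group mean as a line and the SD as a bar. Meis1 and Meis2 are about 2 or more log2 units higher in both in vivo groups, Pbx3 is lower in them, and the other panels show small shifts on narrow scales.

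Polycomb proteins keep Hox genes silent, and Trithorax proteins with the H3K27 demethylases keep them open. Of 15 tested Polycomb genes 5 were higher and 7 lower against WT1-negative cells in each in vivo group, beside 59.6% and 58.0% of all tested probes called, and 0 were called between the in vivo groups. Ezh2, the H3K27 methyltransferase, was lower by -2.59 and -2.67 (adjusted p 5.2e-05 and 4.8e-05). Its partner Eed was 1.52 and 1.80 higher (adjusted p 3.1e-04 and 1.0e-04), the chromodomain gene Cbx6 1.48 and 1.40 higher (adjusted p 1.0e-05 and 1.9e-05), and the ubiquitin ligase Rnf2, undetected in culture, at least 2.54-fold and 2.10-fold higher. Of 9 Trithorax and demethylase genes 3 were higher and 3 lower in WT1-high cells, and 2 and 2 in WT1-intermediate cells, beside the same shares of all probes. Among them were the demethylase Jmjd3 (Kdm6b), 2.45 and 2.26 higher (adjusted p 1.8e-06 and 4.1e-06), and Rbbp5, at -1.99 and -1.91 (adjusted p 4.0e-06 and 6.6e-06).

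Retinoic acid, made by Aldh1a2, and the Cdx factors set Hox expression in the embryo. Aldh1a2 was 2.47 (adjusted p 4.7e-05) and 1.36 (adjusted p 0.0033) above WT1-negative cells, with 7.76, 7.63 and 7.68 in WT1-high, 6.11, 7.10 and 6.52 in WT1-intermediate and 4.81, 5.99 and 4.86 in WT1-negative cells. WT1-high cells were also above WT1-intermediate cells on every array (difference 1.11, adjusted p 0.082, no call). With the arrays treated as pairs, Aldh1a2 was called (adjusted p 0.011 with a fixed and 0.024 with a random replicate block). Of 6 tested genes of this list 2 were higher (Aldh1a2 and Rarg) and 1 lower (Rxra) in both comparisons, beside 59.6% and 58.0% of all tested probes called. For WT1-intermediate cells the Rxra call was lost under 12 of 20 alternatives, and under median scaling 0 genes of the list were called. Cdx2 was detected on no array.

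Genes that border the clusters were described as well. Of 9 tested neighbours 2 were higher and 2 lower in WT1-high and 3 and 3 in WT1-intermediate cells against WT1-negative cells, beside 59.6% and 58.0% of all tested probes called, and 0 were called between the in vivo groups. Tax1bp1, near Hoxa13, was 1.90 and 1.75 higher (adjusted p 5.5e-06 and 1.3e-05), whereas Cbx5, near Hoxc4, was at -0.70 and -1.10 (adjusted p 0.028 and 0.0025), the first of these calls being lost under 9 of 21 alternatives. Skap1, next to Hoxb1, was detected on no cultured array and was at least 1.61-fold and 1.65-fold higher in vivo. The antisense gene Hoxa11s was detected on no array.

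Markers of other cell types moved with the groups, and their part in the Hox values was not tested. In bulk RNA, fewer cells of a type and less RNA per cell cannot be told apart. Summed mesothelial signal was 35746 to 40044 in WT1-high, 20670 to 28597 in WT1-intermediate and 248 to 345 in WT1-negative arrays, with 12 of 12 genes higher in both in vivo groups. Summed macrophage signal was 4489 to 8000, 14074 to 25930 and 43668 to 48833, in the same order of groups. Of its 12 genes 7 were called lower in the first group than in the second, beside 3.55% of all tested probes called. Skeletal muscle signal was 216 to 499, 181 to 236 and 6909 to 10579. Portal and adventitial fibroblast signal was 4225 to 6155, 6599 to 11182 and 1839 to 2949. T and NK cell signal was 561 to 986, 548 to 1074 and 23 to 27. Hepatocyte signal was 5753 to 8787, 2937 to 4817 and 3329 to 4774, and endothelial signal 880 to 1236, 1498 to 1945 and 745 to 1064. Summed stellate cell signal was 12635 to 13126, 12769 to 16740 and 10626 to 13413. Of the 14 stellate cell markers 10 were tested, and 3 (Lhx2, Gfap and Rgs5) were detected on no array. Lrat, Hand2 and Colec11 were also undetected on every cultured array, and Lrat and Ngfr on every WT1-intermediate array. Against WT1-negative cells 3 were called higher and 5 lower in WT1-high cells, and 3 and 4 in WT1-intermediate cells. Over all tested probes 59.6% and 58.0% were called. Between 38.1% and 43.7% of all probes were detected per array.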

How the data were processed

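The authors exported BeadStudio summary probe profiles, so the deposited values were an intensity per probe, not background corrected or normalized, each with a deposited detection p-value. Intensities were read from the joined table of all 9 arrays, and equalled the separate tables for the 8 arrays compared (largest difference 0). Detection p and control probes came from the separate tables, where a GFP-low column named 29 was taken as WT1-intermediate replicate 30, the array left in its group. The other 91 columns of per-array values (bead numbers, standard errors and repeats) were not used.

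Following the study's outline, intensities were background corrected from 936 negative controls (974 control probes in all), quantile normalized and log2 transformed with neqc (limma 3.58.1, R 4.3.3, offset 16). A probe was tested if at least 3 arrays gave it a detection p under 0.05 (20573 of 45281), a filter added here. All 9 arrays entered one linear model with a mean per group, with 6 residual and 5.19 prior degrees of freedom. Moderated two-sided tests were adjusted by Benjamini-Hochberg over all tested probes. Folds written "at least" are lower bounds against the lowest detected signal, used for a dimmer group without any detected array. The number of arrays limits the precision.

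By rule, Hox genes called with at least a 2-fold difference were given on every array, and at most 4 genes per other list. Of the genes that the rules would take, 1 Hox gene and 1 cofactor gene are not reported here and enter no count of members, although their probes remain in the fit. Members, lists and rules were chosen with earlier results of these data known. Steps were tested on simulated data. Alternatives covered background, scaling, offset, filter, fit, blocks and leaving out each array. Replicate numbers were checked by correlating deviations from group means across probes: same-numbered in vivo arrays (29 with 30) gave 0.34 to 0.47, other combinations -0.39 to 0.03, and the study names 3 animals, so they were treated as pairs. Array symbols are the deposited ones, and promoter windows are from RefSeq.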

Additional observations from a re-analysis of the deposited data

How the results depend on the processing

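Of 16 tested Hox genes, Hoxa5 and Hoxb5 kept their calls between WT1-high and WT1-negative cells under all 21 alternatives. Among these was the 2-fold requirement, which was also the rule that chose both genes and so could not remove their calls. In the comparison of the in vivo groups, called Hox probes went from 0 to 1 under median scaling (Hoxa5, with 2684 of all 20573 probes called) and the random replicate block, and to 2 under the fixed replicate block. Between WT1-high and WT1-negative cells it went from 4 to 7 under cyclic loess and array weights, and to 2 with detection on all 9 arrays and where a 2-fold change was required. Between WT1-intermediate and WT1-negative cells it went from 4 to 2 under median scaling (0 higher, 2 lower) and to 0 where a 2-fold change was required. Without each array in turn the counts were 0 to 0, 3 to 5 and 3 to 5 in the order above. For Hox genes the replicate blocks changed no other call. Among the other genes they added, between the in vivo groups, Aldh1a2 (both blocks), Psip1 (random) and Ring1 (fixed), and, between WT1-intermediate and WT1-negative cells, Pbx2 (random). Median scaling turned Hoxa5 in WT1-intermediate against WT1-negative cells to -0.15 and, among other genes, Mll1 to -0.23, Psip1 to -0.69 and Skap2 to -0.66. It moved all tested probes by a median of 0.45 between the in vivo groups, -0.07 between WT1-high and WT1-negative cells and -0.44 between WT1-intermediate and WT1-negative cells. The cause was not tested. Uncalled differences changed sign under at least 1 alternative for 5 of 16, 5 of 12 and 7 of 12 genes. A block by BeadChip was not run. Posterior Hox probes lay near background, which limits what their differences show.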
